A study of Mus musculus with 6 samples.

Results

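Genes of adenosine and cyclic nucleotide signalling were followed in lymph node T cells of 2 Dicer genotypes. The 10 genes were named as a set of ectonucleotidases (Nt5e, Entpd1), adenosine genes (Adora2a, Ada), phosphodiesterases (Pde3b, Pde4b, Pde4d, Pde7a) and guanylate cyclase subunits (Gucy1a1, Gucy1b1), and every probe set whose single gene symbol was one of these was taken. That gave 28 probe sets of 9 genes among the 45101 of the array. No probe set carried the symbol Adora2a in the annotation used, so this adenosine receptor was not analysed here. Of the 28, 5 probe sets (3 of Pde4b, 1 of Pde4d and 1 of Gucy1a1) read between 3.82 and 11.2 on all 6 arrays and failed the filter on dim signals (log2 intensity above 4 on at least 3 arrays), which left 23 tested probe sets.

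Both groups held sorted CD4+YFP+ cells of mice with a FoxP3-GFP-hCre allele and a ROSA26R-YFP reporter, 3 arrays each. The Het mice were Dicerwt/lox and the KO mice Dicerlox/lox, so the controls carried Cre and 1 lox copy of Dicer as well, and the age of the mice was not given in the labels. Cre was driven by Foxp3, which encodes the factor that defines regulatory T cells. YFP stays on in a cell once Cre has acted, so the sort takes cells that express Foxp3 or once did. The comparison asks which messenger RNAs differ when such cells lose Dicer, the enzyme that makes mature microRNAs. The arrays of a group bear the letters A, B and C, the order of all values given here, and are not said to be separate animals, so p-values measure only how far these samples spread, and that spread may be technical.

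Regulatory T cells use adenosine and cyclic AMP as signals that restrain other cells and themselves. At the cell surface CD39 (Entpd1) removes phosphates from ATP and ADP, and CD73 (Nt5e) turns the AMP that results into adenosine, which acts on the receptor Adora2a encodes to raise cyclic AMP, while adenosine deaminase (Ada) removes adenosine. Phosphodiesterases end the signal by hydrolysing cyclic AMP or cyclic GMP, and soluble guanylate cyclase, a dimer of an alpha (Gucy1a1) and a beta (Gucy1b1) subunit, makes cyclic GMP in response to nitric oxide.

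Of the 23 tested probe sets 1 passed the test (limma with Benjamini-Hochberg adjustment over all 29507 tested probe sets, adjusted p under 0.05): the brightest of Gucy1a1, which was lower in KO. Over all tested probe sets 1.78% passed, 1.11% higher and 0.668% lower in KO. Entpd1 was higher in every KO array than in any Het array on its 3 probe sets and Pde3b on its 1, but their adjusted p lay between 0.0706 and 0.287. The median log2 difference (KO minus Het, on log2 intensity) was 0.17 over the 23 probe sets and -0.03 over all tested. At an unadjusted p under 0.05 stood 4 of the 23, against 19.1% of all tested. The difference was above 0 for 15 of the 23, against 42.8% of all tested. KO and Het arrays did not overlap on 8 of the 23, with 4 higher and 4 lower in KO. Over all tested probe sets 26.2% did not overlap, 11.3% higher and 14.9% lower in KO. The genes were chosen with earlier results of these arrays known, so these counts are a description.

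**Figure D1:**
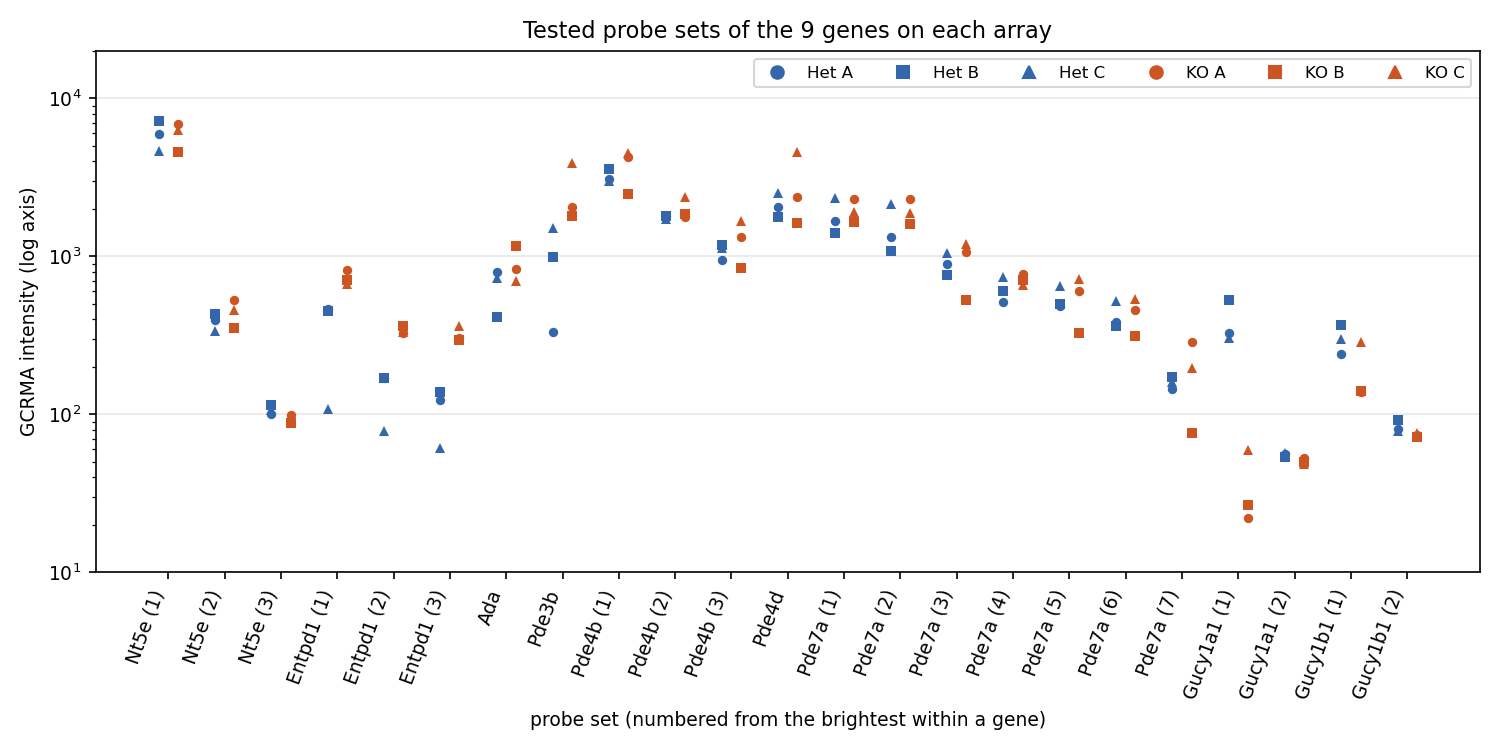
GCRMA intensity (log axis) of the 23 tested probe sets on each array, Het in blue and KO in orange, with the letter of the array as the marker shape. The brightest Gucy1a1 probe set lies at 303 to 531 in Het and 22.1 to 59.3 in KO, and the 3 Entpd1 probe sets lie higher in KO, with Het C lowest.

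The RefSeq promoter table (GRCm38.p6) held windows for 7 of the 10 genes. For 5 of these genes a window lay outside the annotated span of the gene, and the 250 bases before the start are shown for Entpd1 and Nt5e, whose enzymes act one after the other and which are the 2 surface enzymes of the set, and for Gucy1b1, whose partner subunit fell. Sequences run 5′ to 3′ on the strand of the gene. Capitals mark matches to TGACG or its reverse complement CGTCA, the short core of the cyclic AMP response element, and to the GC box GGGCGG or CCGCCC.
Entpd1, chr19:40612116-40612365, plus strand: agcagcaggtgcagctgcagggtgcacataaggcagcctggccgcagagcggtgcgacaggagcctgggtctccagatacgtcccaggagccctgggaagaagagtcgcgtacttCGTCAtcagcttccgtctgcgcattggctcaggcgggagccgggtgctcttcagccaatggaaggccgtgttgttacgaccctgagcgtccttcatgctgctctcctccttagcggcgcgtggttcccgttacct
Nt5e, chr9:88327359-88327608, plus strand: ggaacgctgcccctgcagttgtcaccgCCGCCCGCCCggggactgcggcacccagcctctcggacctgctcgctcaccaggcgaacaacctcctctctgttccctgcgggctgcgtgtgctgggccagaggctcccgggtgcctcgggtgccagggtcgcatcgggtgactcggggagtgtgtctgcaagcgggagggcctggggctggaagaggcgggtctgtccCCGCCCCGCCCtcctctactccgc
Gucy1b1, chr3:82074712-82074961, minus strand: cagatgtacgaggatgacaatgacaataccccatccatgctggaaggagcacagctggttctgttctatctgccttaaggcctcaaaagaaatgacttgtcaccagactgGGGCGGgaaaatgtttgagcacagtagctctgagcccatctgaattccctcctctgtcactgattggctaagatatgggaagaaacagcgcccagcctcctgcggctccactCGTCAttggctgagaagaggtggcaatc
The Entpd1 window held 1 core, at 135 to 131 bases before the start, and no GC box. The Gucy1b1 window held 1 core at 28 to 24 bases before the start and 1 GC box at 140 to 135. The Nt5e window held 4 GC box matches, which lie in 2 overlapping pairs, and no core. Of 32851 windows of this length in the table, 17.8% held the core and 32.7% the GC box. The full element TGACGTCA (1.55% of windows), which contains the core, the forkhead motif TGTTTAC (3.17%) and the AP-1 motif TGANTCA (6.75%), searched on both strands, had no match in these 3 windows. A match is a run of letters and not a site of binding.

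Entpd1, the gene of CD39, read higher in KO cells on each of its probe sets. The brightest read 463, 453 and 109 over Het against 821, 709 and 671 over KO. The groups did not overlap, and Het C lay far below Het A and Het B. The second read 171, 170 and 78.5 in Het against 328, 361 and 331 in KO, and the dimmest 123, 138 and 61.3 in Het against 306, 297 and 361 in KO. Het C was the lowest Het array on all 3, so within the Het group the highest array exceeded the lowest 4.25-fold, 2.18-fold and 2.25-fold, against 1.22-fold, 1.10-fold and 1.21-fold within KO. The log2 differences were 1.37 ± 0.59 (SE), 1.37 ± 0.32 and 1.66 ± 0.32, which is 2.58-fold, 2.58-fold and 3.16-fold (limma, adjusted p = 0.287, 0.102 and 0.0706), so none of them passed. Without Het C they were 0.68, 0.995 and 1.30 (adjusted p = 0.132, 0.0761 and 0.0791). Without both B arrays they were 1.73, 1.51 and 1.94. Myeloid and plasma cells can also express Entpd1. The 5 tested of 9 myeloid markers summed to 318, 630 and 387 in Het against 540, 1907 and 867 in KO. Cd68 among them read 37.7, 28.4 and 64.0 in Het against 84.1, 231 and 186 in KO. The other tested ones overlapped between the groups. Of these Lyz2 read 50.6, 381 and 97.4 in Het against 232, 1408 and 441 in KO. Csf1r read 152 to 164 in Het and 156 to 174 in KO, and Adgre1 and S100a9 were the rest. Itgam, Cd14, Itgax and S100a8 were under the filter. The part of such cells in the Entpd1 values was not tested. RNA of a sorted population does not tell more cells of a type from more RNA per cell.

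Nt5e, the gene of CD73, overlapped between the groups on its 2 brighter probe sets. The first read 5969, 7143 and 4661 in Het against 6865, 4569 and 6297 in KO. The ranges of the groups lay almost on top of each other, and the KO minus Het difference was -0.00 ± 0.22 in log2 (SE; adjusted p by limma 0.996). The second probe set read 336 to 430 in Het and 354 to 527 in KO (log2 0.20, adjusted p = 0.609). The dimmest read 101 to 115 in Het and 88.2 to 99.4 in KO (log2 -0.18, adjusted p = 0.363). KO B was the lowest KO array and KO A the highest on all 3 Nt5e probe sets. Without both B arrays, the first probe set gave log2 0.32 (adjusted p = 0.419).

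Ada, which encodes the enzyme that converts adenosine to inosine, had 1 probe set. It read 799, 415 and 731 in Het against 833, 1159 and 694 in KO. The groups overlapped, with Het B the lowest and KO B the highest array of all. The log2 difference was 0.49 ± 0.31 (SE; limma, adjusted p = 0.469), and -0.01 without both B arrays. Dpp4, the gene of the surface protein CD26, was in the list of other nucleotide and adenosine enzymes. It rose 2.09-fold on its brightest probe set (limma, adjusted p = 0.0465). Its mean was 1952 ± 259 over the Het arrays and 4089 ± 665 over the KO arrays (SD, n = 3). With any 1 array left out it did not pass (adjusted p = 0.0689 to 0.135). Its other 3 probe sets had every KO array above every Het array too, with log2 differences of 0.56 to 0.72 that did not pass (adjusted p = 0.114 to 0.311).

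**Figure D2:**
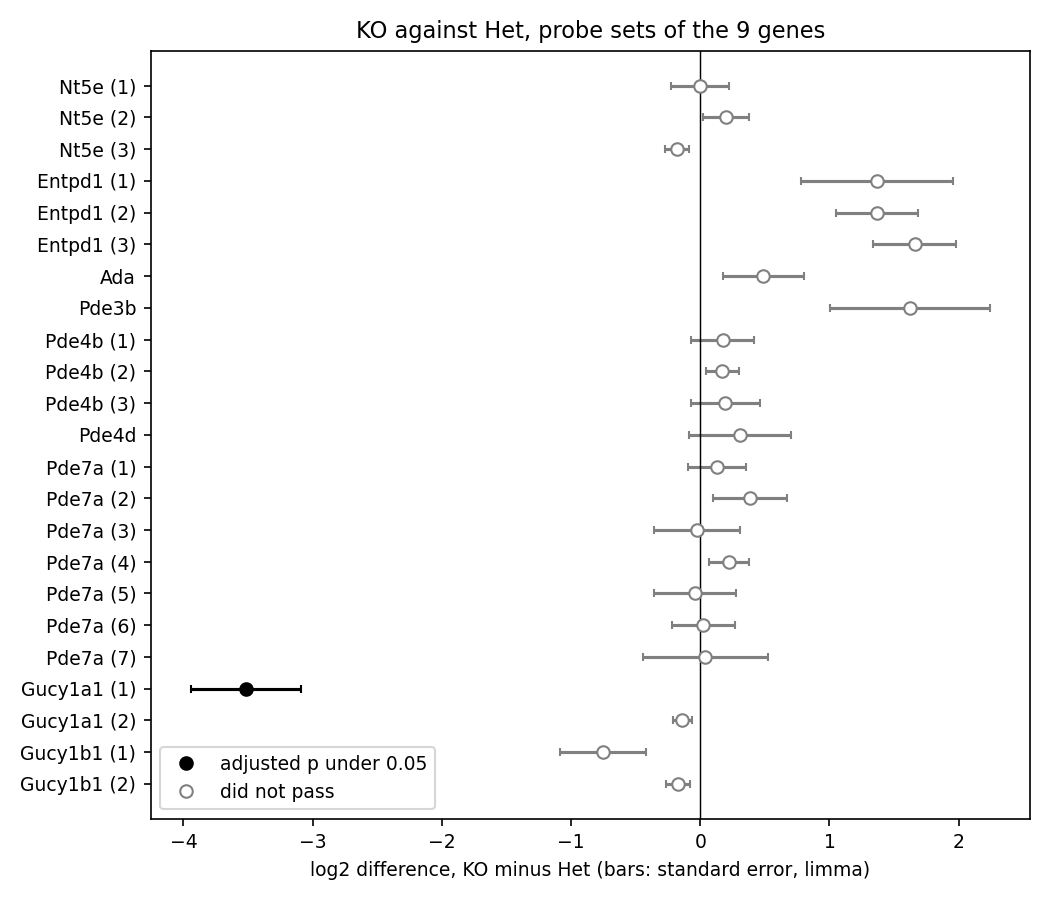
Log2 difference (KO minus Het) of each tested probe set with its standard error from limma, probe sets numbered from the brightest within a gene. The filled point, Gucy1a1 at -3.52, passed at an adjusted p under 0.05, and the open points did not.

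Among the phosphodiesterases Pde3b had the largest difference. This enzyme hydrolyses cyclic AMP and is inhibited by cyclic GMP, and its gene is known to be repressed by Foxp3 in regulatory T cells. On the Het arrays it read 331, 988 and 1502 and on the KO arrays 2045, 1804 and 3879. All KO arrays lay above all Het arrays, and the Het arrays spread 4.54-fold among themselves. The log2 difference was 1.62 ± 0.62 (SE), or 3.08-fold (limma, adjusted p = 0.241), and 0.99 without Het A (adjusted p = 0.380). Foxp3 read 9960, 8945 and 9769 in Het against 5453, 9417 and 5420 in KO. The part of Foxp3 in the Pde3b values was not tested. Het A was also the lowest array for the proliferation marker Mki67, which read 1510, 7452 and 5736 in Het against 11050, 16320 and 10680 in KO. Within each group Mki67 was highest on the B array and Pde3b on the C array. All 11 tested of 12 proliferation genes had differences above 0 (limma, 0 passed, unadjusted p under 0.05 for 8 higher and 0 lower). Over all 13280 genes tested, by their brightest probe set, 43.4% had differences above 0 and 22.3% an unadjusted p under 0.05. The part of proliferation in the Pde3b values was not tested.

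Pde4b and Pde4d belong to the cyclic AMP-specific PDE4 family, which is recruited to the antigen receptor complex of T cells. The brightest Pde4b probe set read 3073, 3561 and 3020 in Het against 4240, 2489 and 4491 in KO. KO A and KO C lay above the Het range and KO B below it. The 3 tested Pde4b probe sets gave log2 differences of 0.17, 0.17 and 0.19 (limma, adjusted p = 0.542 to 0.754). Pde4d read 2063, 1773 and 2518 over Het against 2363, 1617 and 4587 over KO, and the difference was 0.31 ± 0.39 in log2 (SE; adjusted p = 0.726). Its KO arrays spread 2.84-fold, and without KO C the difference was -0.10. Without both B arrays, Pde4b gave 0.52, 0.23 and 0.54 from its brightest to its dimmest tested probe set (adjusted p = 0.160, 0.557 and 0.269) and Pde4d 0.53 (adjusted p = 0.530).

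Pde7a, a cyclic AMP phosphodiesterase induced in activated T cells, had 7 tested probe sets, of which 0 passed by limma and 0 had an unadjusted p under 0.05. Its brightest read 1662, 1415 and 2345 in Het against 2296, 1660 and 1903 in KO, with every KO array inside the Het range. The log2 differences of the 7 ran from -0.04 to 0.39 (limma, adjusted p = 0.504 to 0.979). Its dimmest probe set read 144 to 172 in Het against 287, 76.8 and 197 in KO, a 3.73-fold spread within KO.

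The KO group was uneven for these enzymes. KO B was the lowest KO array on 9 of the 11 tested probe sets of Pde4b, Pde4d and Pde7a, and KO C the highest on 7. Of the 9, 6 were probe sets of the 1 gene Pde7a. The share of such probe sets over the whole array was not counted, so whether this is particular to these enzymes is not known. In Het, array C was the highest on 7 of the 11 and the lowest was Het B on 5, Het A on 4 and Het C on 2. Some genes that CREB and antigen receptor signals induce, picked after their values were seen, were uneven in the same arrays. Fos read 12510, 4692 and 12680 in Het against 27280, 6488 and 36120 in KO. Fosb read 141, 43.0 and 355 in Het against 1204, 50.3 and 3097 in KO, so that the B array was lowest in both groups. Junb was at 2014 to 3780 in Het against 5602, 2489 and 15900 in KO. Some markers of other cell types were highest on Het B and KO B. The summed intensity of the CD8 genes Cd8a and Cd8b1 was 909, 2257 and 651 in Het against 670, 4415 and 636 in KO. The 4 tested of 8 B cell markers summed to 1040, 2449 and 1074 in Het against 1881, 5015 and 2043 in KO, while Pax5, Blnk and Cr2 were under the filter. Plasma cell markers (5 of 5 tested) had another pattern, with sums of 8880, 9128 and 9149 in Het against 15070, 20970 and 19900 in KO and the groups apart. Most of that sum was Xbp1, a factor that T cells also express, which rose (log2 0.89, limma, adjusted p = 0.0270). Jchain, the immunoglobulin joining chain, read 11.5, 163 and 13.6 in Het against 389, 3197 and 2623 in KO (log2 5.66, adjusted p = 0.101). Prdm1 gave log2 0.77 (limma, adjusted p = 0.172). Mzb1 read 64.5, 84.6 and 63.1 in Het against 79.1, 379 and 357 in KO, so the groups overlapped. Sdc1 went the other way, at 74.9 to 80.6 in Het and 72.2 to 72.6 in KO. The sort was on CD4 and YFP, and its purity was not tested here. The part of these genes and markers in the values of the phosphodiesterases was not tested.

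**Figure D3:**
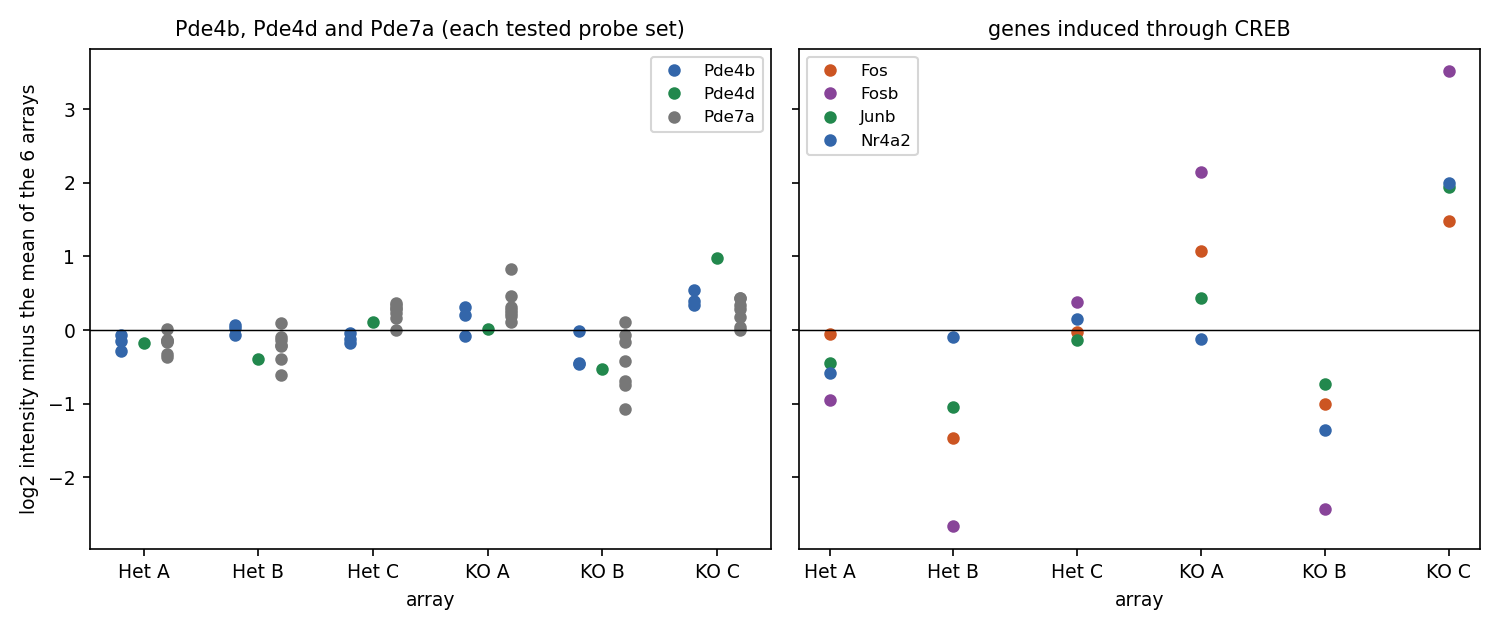
Log2 intensity on each array minus the mean of the 6 arrays. Left, the 3 Pde4b, 1 Pde4d and 7 Pde7a tested probe sets; right, Fos, Fosb, Junb and Nr4a2. KO B is the lowest KO array on 9 of the 11 probe sets on the left, and Fosb on the right reads 50.3 on KO B against 1204 and 3097 on KO A and KO C.

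Gucy1a1 fell in KO cells on its brightest probe set. The Het arrays read 328, 531 and 303 and the KO arrays 22.1, 26.9 and 59.3. Every KO array lay far below the lowest Het array, and KO C was the highest of the KO arrays. The means were 387 ± 125 in Het and 36.1 ± 20.2 in KO (SD, n = 3). The fitted difference was -3.52 ± 0.43 in log2 (SE; limma, adjusted p = 0.0297). With 1 array left out, whichever it was, it stayed between -3.94 and -3.23, with adjusted p between 0.0590 and 0.116, so the call needs all 6 arrays. KO A and KO B were dimmer than the median probe set of their arrays, which was 58.1 to 61.5 over the arrays. No detection call was used here, so whether the KO readings stand above background is not known, and the size of the fold is uncertain. The second Gucy1a1 probe set read 53.8 to 56.9 in Het and 48.7 to 52.8 in KO (log2 -0.14, adjusted p = 0.391), below the array median on all 6 arrays. The remaining one, from 4.27 to 5.41 on all arrays, was not tested. The fall therefore rests on 1 of 3 probe sets, and which transcript forms each one reads is not known here.

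Gucy1b1, the beta subunit, is the neighbour of Gucy1a1 on chromosome 3, with no annotated gene lying wholly in the 17715 bases between them. Its brighter probe set read 241, 369 and 298 in Het against 138, 141 and 286 in KO. KO A and KO B lay below every Het array and KO C among them. The log2 difference was -0.75 ± 0.33 (SE; limma, adjusted p = 0.297), -1.10 without KO C (adjusted p = 0.138) and -0.44 without both B arrays (0.622). The dimmer one read 79.0 to 92.5 in Het and 72.4 to 76.8 in KO (log2 -0.17, adjusted p = 0.385), with no overlap of the groups. KO C was thus the highest KO array on the brighter probe sets of both subunits. Of the smooth muscle and pericyte markers, cells that hold much soluble guanylate cyclase, 3 of 7 passed the filter on dim signals and summed to 98.1 to 104 in Het and 84.9 to 103 in KO, and Myh11, Cnn1, Rgs5 and Des were under it.

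**Figure D4:**
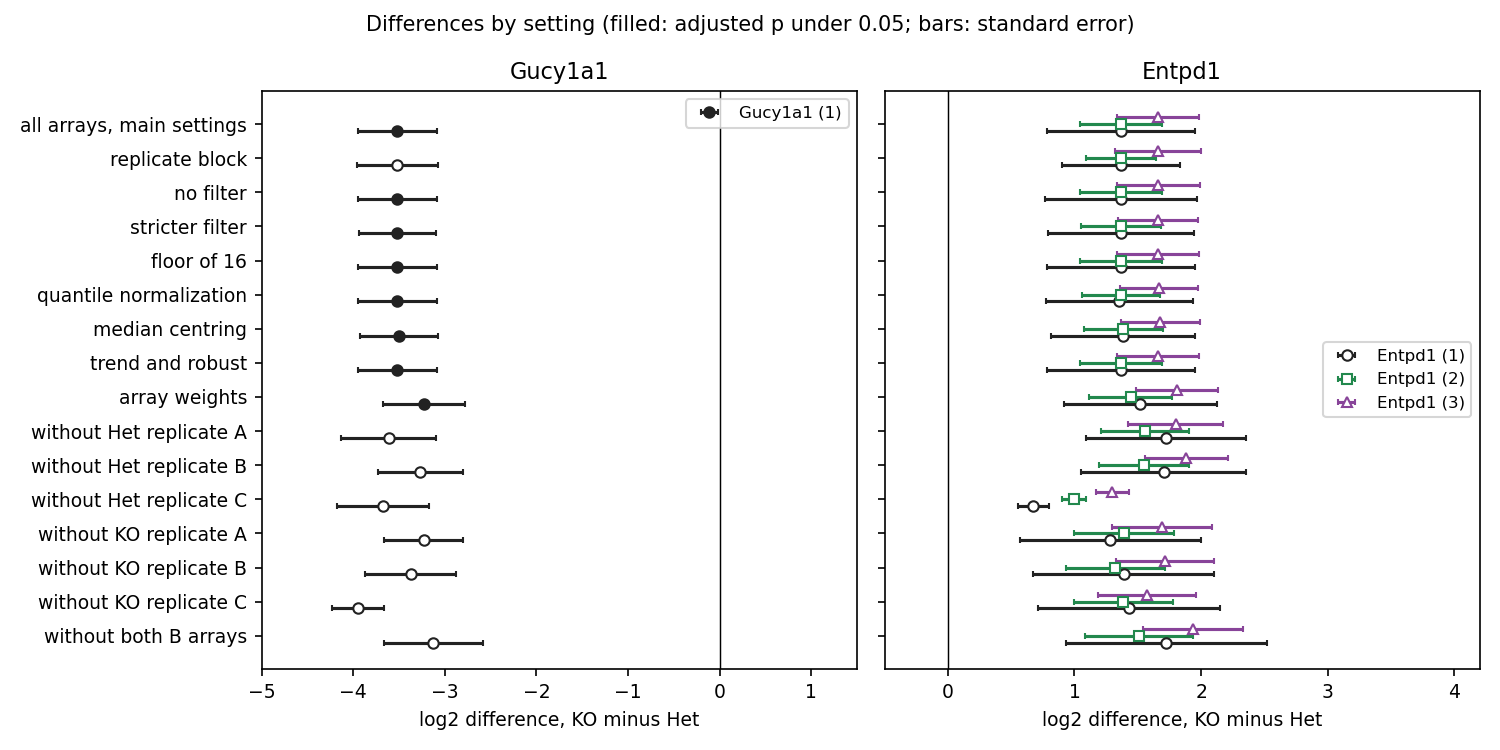
Log2 difference (KO minus Het, bars are standard errors) of the brightest Gucy1a1 probe set and the 3 Entpd1 probe sets under each setting but the mean over probe sets, filled where the adjusted p was under 0.05. Gucy1a1 stays between -3.94 and -3.12 and is open where 1 array, or both B arrays, are left out and with the replicate block, while the Entpd1 points are open throughout and lowest without Het C. The dimmest Entpd1 probe set there is at 1.30.

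The genes whose values over the 6 arrays were most like those of the fallen Gucy1a1 probe set were found by the root mean square difference of log2 profiles, each centred on its own mean, with 1 probe set per gene. Hdac9, a histone deacetylase, was nearest at 0.39, with 94.1, 205 and 81.3 in Het against 9.22, 10.7 and 11.5 in KO. These KO readings lie under the cut on dim signals, so the Hdac9 probe set was tested through its Het arrays only. Iftap (0.68), Mcoln3, a lysosomal ion channel (0.74), Pla2g4f, a phospholipase A2 (0.75), and Dmd, the gene of dystrophin (0.77), followed. For the Entpd1 probe set with the smallest p the nearest was Serpinb9, an inhibitor of granzyme B, at 0.17, with 874, 942 and 567 in Het against 2574, 2661 and 3280 in KO. Zcchc3 (0.26), the class I gene H2-Q5 (0.27), Als2cl (0.29) and Gimap7, a GTPase of lymphocytes (0.31), came next. Het C was the lowest Het array for all 5 of these, as it was for Entpd1. The 5 were picked for likeness to that profile, so this is no separate finding. With 6 arrays and 13280 genes such likeness is a description.

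Other genes of the pathway were read from 10 lists with 161 genes, of which 110 were tested on their brightest probe set. Of these 2 rose, 1 fell and 107 did not pass, which is 2.73% called, against 2.33% of all 13280 genes tested (1.37% higher and 0.956% lower). The median log2 difference was 0.01, against -0.03 over all genes. Over all genes 22.3% had an unadjusted p under 0.05 by limma, the share to set beside the list counts below. The genes that passed were Dpp4, given above, and Rapgef3 and Prkar2b, which both bind cyclic AMP.

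Downstream of cyclic AMP, Rapgef3 rose and Prkar2b fell. Rapgef3 encodes Epac1, an exchange factor for Rap proteins that cyclic AMP switches on independently of protein kinase A. Its brightest probe set read 47.0, 28.0 and 31.1 over Het against 184, 147 and 391 over KO, with all Het arrays below the median of all probe sets. The difference in log2 was 2.67 ± 0.41 (SE; limma, adjusted p = 0.0477). Another probe set, read between 30.3 and 34.3 in Het and between 84.5 and 168 in KO, also passed (log2 1.91, adjusted p = 0.0364). A further one passed too but met the filter on dim signals through the KO arrays and Het C only, so it adds no support, and of the others 1 did not pass (log2 0.65, adjusted p = 0.285) and 1 was not tested. Rapgef3 was 1 of 11 tested members of the list of other cyclic AMP effectors (1 rose, 0 fell). Prkar2b, a regulatory subunit that holds protein kinase A inactive until cyclic AMP binds, read 243, 292 and 291 over Het against 160, 131 and 159 over KO. The difference was -0.87 ± 0.13 in log2 (SE; limma, adjusted p = 0.0426). No KO array reached the Het range. Its second probe set gave -0.64 (adjusted p = 0.224) and the dimmest, between 14.8 and 22.5, gave 0.17. Of 18 tested members of the protein kinase A list, 0 rose and 1 fell by limma (unadjusted p under 0.05 for 2 higher and 1 lower). Neither gene passed where 1 array was left out, whichever it was (adjusted p = 0.0723 to 0.143 for Rapgef3 and 0.0840 to 0.133 for Prkar2b).

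Enzymes that make or remove cyclic AMP did not pass on their brightest probe sets. Of 6 adenylate cyclases 0 passed (limma; unadjusted p under 0.05 for 3 higher and 0 lower), with a list median of 0.32. Adcy3 read 683 to 727 in Het and 909 to 1049 in KO (log2 0.51, adjusted p = 0.0580). The dimmest Adcy3 probe set rose, from between 52.6 and 59.3 in Het to between 83.1 and 96.0 in KO (log2 0.66, limma, adjusted p = 0.0423). It was below the array median on 3 of 6 arrays. The remaining Adcy3 probe sets gave log2 0.95 (adjusted p = 0.0541) and 0.37 (adjusted p = 0.125) and did not pass. Adcy6 gave 0.66 (adjusted p = 0.0785). Of 15 other phosphodiesterases 0 passed (limma; unadjusted p under 0.05 for 2 higher and 0 lower), with a median of 0.04. Pde2a, an enzyme that cyclic GMP activates, read 1306 to 1599 in Het and 2071 to 2571 in KO (log2 0.77, adjusted p = 0.0589), and Pde8a, a cyclic AMP phosphodiesterase, 338 to 451 and 585 to 820 (log2 0.84, adjusted p = 0.0812). The groups did not overlap on these 2 probe sets, nor on the second Pde2a probe set by brightness (log2 1.12, adjusted p = 0.0766). On the dimmest Pde2a probe set they did overlap (log2 0.23, adjusted p = 0.464).

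Receptors, transporters and response genes had 0 calls in each list (limma). Of the genes named from these lists, P2ry14 (adjusted p = 0.0420), P2rx4 (0.0498) and Per1 (0.0446) passed with a stricter filter and with array weights (0.0429, 0.0428 and 0.0477). Of 8 receptors for ATP and other nucleotides, the unadjusted p was under 0.05 for 3 higher and 0 lower. P2ry14, a receptor for UDP-glucose, read 94.3, 55.0 and 49.5 over Het against 182, 344 and 318 over KO (log2 2.09, adjusted p = 0.0546). P2rx4, an ATP-gated channel, gave log2 0.61 (adjusted p = 0.0562). On its other tested probe sets P2rx4 gave 1.01 (adjusted p = 0.121) and 0.03 (adjusted p = 0.858). Of 6 adenosine receptors and nucleoside transporters 0 stood at an unadjusted p under 0.05, and the equilibrative transporter Slc29a1 gave -0.26 (adjusted p = 0.398) and Slc28a3, a concentrative transporter read between 14.7 and 22.6, gave -0.29 (adjusted p = 0.317). Of 10 Gs-coupled receptors and G proteins, the unadjusted p was under 0.05 for 1 higher and 2 lower. Hrh2, a histamine receptor, gave log2 0.44 (adjusted p = 0.120) and Gnai3, an inhibitory G protein subunit, -0.38 (adjusted p = 0.127). The other Gnai3 probe set overlapped between the groups (log2 -0.09, adjusted p = 0.65). The 11 tested cyclic AMP response genes, which share Crem and Sik1 with the effector list, had a median of 1.03, with unadjusted p under 0.05 for 2 higher and 0 lower. Per1, a clock gene, read 393 to 668 in Het and 1102 to 1166 in KO (log2 1.17, adjusted p = 0.0561), and the phosphatase gene Dusp1 gave 1.75 (adjusted p = 0.116). In the nitric oxide and cyclic GMP list 8 of 22 genes were tested and 0 passed (limma; unadjusted p under 0.05 for 1 higher and 0 lower). The exporter gene Abcc4 gave 0.65 (adjusted p = 0.191) and Vasp, an actin regulator that cyclic nucleotide kinases phosphorylate, -0.20 (adjusted p = 0.372). Nos2, Nos3 and Gucy1a2 were under the filter.

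**Figure D5:**
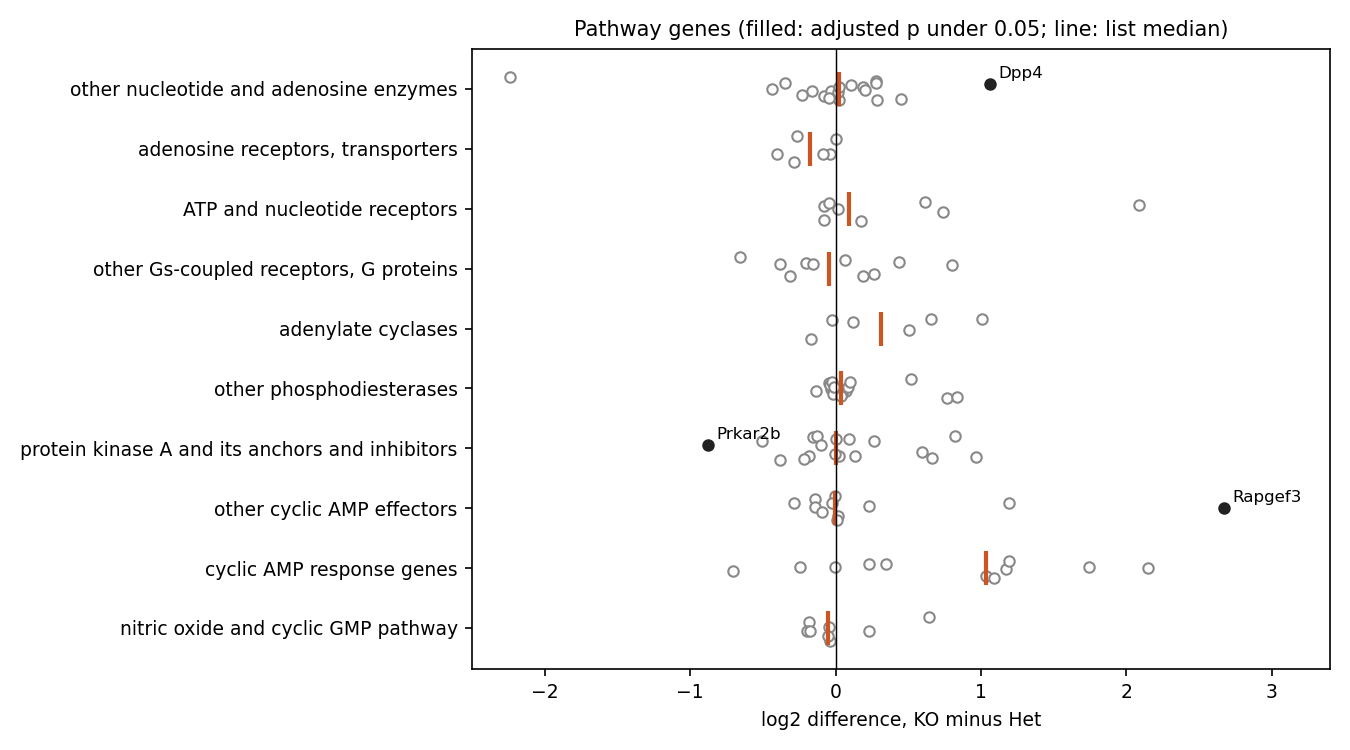
Log2 difference (KO minus Het) of each tested pathway gene by list, on its brightest probe set, with the median of each list as a line. The filled points are Dpp4 at 1.06, Prkar2b at -0.87 and Rapgef3 at 2.67, and the highest list median is that of the cyclic AMP response genes at 1.03.

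The labels were checked as far as the arrays allow. The brighter Dicer1 probe set read 1059 to 1203 in Het and 1029 to 1187 in KO (limma, adjusted p = 0.891) and the other 1120 to 1345 and 709 to 976 (0.145). The position of these probes against the floxed exons is not known here, so they do not check the genotypes. The alpha beta T cell genes Cd3d, Cd3e, Cd3g, Cd247, Cd4, Cd5 and Cd28 were all tested and 0 of the 7 passed (limma; unadjusted p under 0.05 for 0 higher and 1 lower). Of 8 regulatory T cell genes 7 were tested, and Nrp1, a surface receptor, fell (log2 -0.99, limma, adjusted p = 0.0191) while the other 6 did not pass. With 3 arrays per group the precision is limited.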

How the data were processed

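RNA of 6 samples, 3 Het and 3 KO, was measured on expression arrays. The deposited intensities are 1 value per probe set, which per the labels come from GCRMA, a method that subtracts a background estimated from probe sequence and pushes dim signals toward a floor. They are on a linear scale (1.23 to 170023), so log2 was taken. Of 45101 probe sets, 64 controls and 1 row lacking values were set aside. The 29507 that exceeded log2 of 4 on 3 or more arrays entered limma 3.58.1 in R 4.3.3 (lmFit, eBayes, two-sided) with Benjamini-Hochberg adjustment at 0.05. Genes came from the platform annotation, and 34958 probe sets had 1 symbol, 932 several and the rest are unnamed here. The brightest probe set by mean log2 stands for a gene.

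The members and lists were chosen with earlier results of these data known. Named are all members, from each pathway list up to 4 genes that passed by smallest p or the 2 with the smallest p where 0 passed, and the 5 genes most like the 2 leading members (predicted genes passed over). Fos, Fosb, Junb, Nr4a2, Mki67, Xbp1, Jchain, Prdm1, Mzb1, Sdc1, Cd68, Lyz2, Csf1r and the genes listed without a value were named outside that rule. Alternatives were a replicate block, other filters, a floor of 16, other scaling, averaging the tested probe sets of a gene, array weights, robust estimation with a trend, and arrays left out. The steps were tested on simulated data. The labels do not say that the letters pair arrays, so the main fit had no pairing. Deviations from the group means correlated between same-lettered arrays at 0.28 (A), -0.17 (B) and 0.01 (C). Between unlike letters they ran from -0.45 (Het C, KO A) to 0.37 (Het C, KO B), so this check cannot decide the pairing. Plots were drawn with matplotlib.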

Additional observations from a re-analysis of the deposited data

How the results depend on the processing

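The 1 member probe set called was 0 with the letter of the array as a replicate block, where 0 of all 29507 probe sets were called against 525 (limma; 5365 at an unadjusted p under 0.05, 5 of them members), and Gucy1a1 then had adjusted p = 0.102. Whether the letters pair the arrays is not known, as the labels do not say and the check cannot decide it. Under the block the Gucy1a1 difference was -3.52 with SE 0.44, against -3.52 with SE 0.43 in the main fit. Without 1 array the member count was 0 in each of the 6 fits and the count over all probe sets 0 to 176. Without both B arrays both counts were 0 (limma; 5274 of all and 6 members at an unadjusted p under 0.05). With array weights 957 probe sets were called. With no filter, a stricter filter, a floor of 16, quantile normalization, median centring, trend with robust estimation or array weights the Gucy1a1 call held. The mean of the 2 tested Gucy1a1 probe sets passed too (log2 -1.83, limma, adjusted p = 0.0174). That mean contains the called probe set, so it is no separate check. Signs turned only for differences that had not passed. The brightest Nt5e probe set gave 0.0157 with median centring, 0.12 with array weights, 0.0056 as the mean of the Nt5e probe sets, 0.32 without both B arrays and -0.17 to 0.17 without 1 array. Ada gave -0.0073 without both B arrays. The Pde7a probe sets that are the third and the fifth by brightness gave 0.11 and 0.10 with array weights, 0.23 and 0.24 without both B arrays, and -0.25 to 0.34 and -0.27 to 0.30 without 1 array. Without 1 array the first Pde7a probe set gave -0.0284 to 0.34, the sixth -0.14 to 0.24 and the seventh -0.37 to 0.58, the dimmest tested Pde4b probe set -0.0306 to 0.47, and Pde4d -0.10 to 0.65. Dpp4 lost its call with no filter (adjusted p = 0.0610), median centring (0.0520) and as a mean of probe sets (0.0614), Prkar2b with no filter (0.0533), trend with robust estimation (0.0522) and as a mean (0.117), and Rapgef3 with no filter (0.0669). Other pathway genes gained a call. With a stricter filter these were P2ry14 (adjusted p = 0.0420), P2rx4 (0.0498), Pde2a (0.0495) and Per1 (0.0446), with array weights P2ry14 (0.0429), P2rx4 (0.0428), Per1 (0.0477), Adcy6 and Pde2a (both just under 0.05), and as a mean of probe sets Adcy3 (0.0174), P2ry14 (0.0362), Pde2a (0.0478) and Per1 (0.0368).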
